A study of Rattus norvegicus with 10 samples.

Results

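The Fos and Jun gene families encode the proteins that pair up to form the transcription factor AP-1. Here they were followed in the hypothalamic paraventricular nucleus of dehydrated and control rats. The members were Fos, Fosb, Fosl1, Fosl2, Jun, Junb and Jund, and every probe set whose array annotation named 1 gene symbol equal to a member was taken. That gave 13 probe sets for the 7 genes, 6 of them for the Fos family and 7 for the Jun family, out of 31042 probe sets and 14217 gene symbols on the array.

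The dehydrated group was 5 pools of nuclei from male Sprague Dawley rats, aged 10 to 12 weeks, after 3 days of dehydration. The control group was 5 pools from control male Sprague Dawley rats of the same age range. Each pool held tissue of 5 animals and went onto a single Affymetrix Rat Genome 230 2.0 array, and the pools came from separate sets of animals, so a value is an average over 5 rats and hides differences between them. Sample labels and series title name the paraventricular nucleus, while the design text names the supraoptic nucleus, and the sample labels were used.

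AP-1 is a dimer held together by a leucine zipper. Jun proteins can pair with one another or with a Fos protein, whereas Fos proteins need a Jun partner to bind DNA. Fos, Fosb and Junb are immediate-early genes, switched on in neurons soon after stimulation and usually only for a short time, and Fos is widely used to mark neurons of this nucleus that respond to an osmotic stimulus. Jund is transcribed more steadily.

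The tissue label was checked first. Vasopressin (Avp) had signals of 3931 to 5698 in dehydrated pools and 2853 to 4334 in control pools, and oxytocin (Oxt) 3953 to 5499 in dehydrated and 3631 to 4626 in control pools. Crh, the corticotropin-releasing hormone gene, had 212 to 448 in dehydrated and 183 to 413 in control pools, and the lineage factor Sim1 60.1 to 102 in dehydrated and 39.2 to 77.9 in control pools. Among the listed markers of this nucleus, 2 more lineage factors were dim. Otp had 9.3 to 18.8 in dehydrated and 1.1 to 7.7 in control pools, and Pou3f2 0.5 to 1.0 in dehydrated and 0.4 to 0.8 in control pools. Avp and Oxt are also abundant in the supraoptic nucleus, so they do not separate these nuclei. Control replicate 5 was far from the rest on principal component 1, where it lay at 37.2 and the other 9 arrays between -14.4 and 3.69, and its array weight of 0.385 was the lowest. The pituitary transcripts of growth hormone (Gh1) and prolactin (Prl) were high in dehydrated replicate 1. Gh1 had a signal of 389.4 there against 3.0 to 28.4 elsewhere, and Prl 210.2 against 0.7 to 7.6 elsewhere. The other listed pituitary genes were dim. Pomc had 11.3 in that pool against 0.9 to 3.5 elsewhere, and Pou1f1 was not raised, at 0.9 against 0.6 to 3.2 elsewhere. The sample titles are serial numbers that run without a gap within each group, apart from that of control replicate 5, which is out of series, and the labels do not say what the numbers stand for.

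Signals are the linear values of the deposited table, in arbitrary units. Differences are dehydrated minus control on the scale log2(signal + 3.72), with the standard error of a limma fit over all probe sets, and adjusted p are Benjamini-Hochberg values over all probe sets tested. Folds and their intervals are of signal + 3.72, so for dim probe sets they lie nearer to no change than folds of the signal. The filter on low values kept probe sets with a mean signal of at least 24.1 over the 10 arrays. Of the 13 probe sets 6 passed it: 1 of Fos, 1 of Fosl1, 3 of Jun and 1 of Jund. The other 7, with mean signals from 1.70 to 21.6, held every probe set of Fosb, Fosl2 and Junb and the dimmer ones of Fos and Jund. No detection calls were used here, so it cannot be told whether a dim probe set lay above background, and the differences of dim probe sets come from the fit without the filter and move with the pseudocount. In such bulk tissue, a lower share of cells that transcribe a gene and less RNA per cell cannot be told apart.

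None of the members passed the test. Of the 6 tested probe sets 0 had an adjusted p under 0.05, against 0.580% of all 18629 tested, and in the fit without the filter it was 0 of 13, against 0.206% of 31042. Before adjustment, p was under 0.05 in 2 of the 6 (Fosl1 and a Jun probe set), beside 12.7% of all tested probe sets. The Fosl1 probe set passed the filter because of its dehydrated values, so its place in this count is not independent of the filter. Without the filter, p was under 0.05 for 3 of the 13, beside 10.5% of all: those of Fosl1, of Jun and a dim one of Jund. That count moved to 6 of 13 without control replicate 5, beside 3580 of all 31042, with 0 past the adjusted threshold. It was 3 or 4 with any other array left out. With all arrays the log2 difference was positive for 9 of the 13 and negative for 4, where 52.8% of all probe sets were positive. In 1 of the 13, a Jun probe set, the dehydrated and control values did not overlap, which was so for 3.36% of the tested and 2.52% of all probe sets. The median log2 difference of the 13 was 0.12, beside 0.01 over all probe sets without the filter. Several of the 13 report on the same gene and are not independent.

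**Figure D1:**
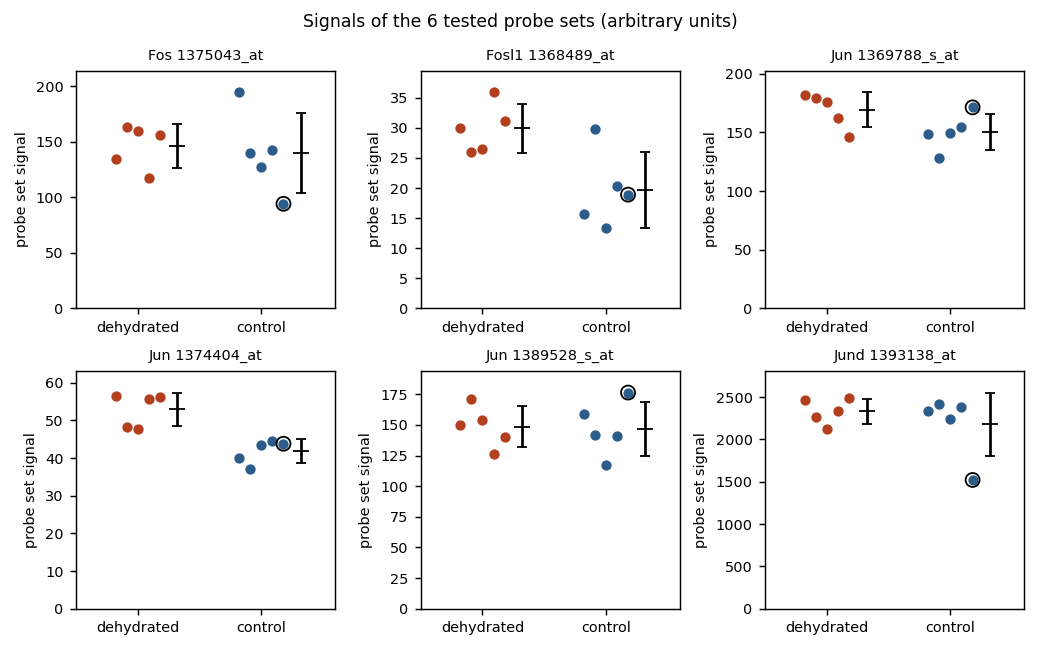
Signals (vertical axis, arbitrary units, starting at 0) of the 6 tested probe sets in 5 dehydrated (left) and 5 control (right) pools, replicates 1 to 5 from left to right within a group. The black mark and bar are the mean and SD, and the ring marks control replicate 5, the lowest control for Fos at 94.2 and for Jund at 1521.7.

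Fos did not pass the test. Its tested probe set, 1375043_at, had signals of 134.8, 163.7, 159.9, 117.0 and 156.4 in the dehydrated pools, against 194.6, 140.0, 127.5, 142.6 and 94.2 in the control pools. The highest and the lowest of the 10 values were both controls, and the dehydrated values all lay between them. Fos averaged 146 ± 19.9 in dehydrated and 140 ± 36.2 in control pools (SD, n = 5 each). The log2 difference was 0.09 ± 0.15 (adjusted p = 0.840). The 95% interval of the fold ran from 0.858 to 1.32, so a 2-fold pool average lies outside it for this probe set. The low value belonged to control replicate 5, and without that array the difference was -0.04 (adjusted p = 0.914). The high value belonged to control replicate 1, and without that array the difference was 0.22 (adjusted p = 0.552). The second Fos probe set, 1371283_at, was dim, at 9.6, 7.3, 3.0, 9.6 and 7.1 in dehydrated and 3.6, 4.9, 3.8, 1.8 and 5.9 in control pools. There 4 of 5 dehydrated values exceeded the highest control. In the fit without the filter its log2 difference was 0.50 ± 0.24 (adjusted p = 0.489), with a 95% interval of the fold from 0.989 to 2.02, which holds a 2-fold change. It was 0.72 at a pseudocount of 1 and 0.23 at 4 times the pseudocount.

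Fosb, which also yields the long-lived splice form DeltaFosB in repeatedly stimulated neurons, had a single dim probe set (1373759_at). Its signals were 7.7, 10.3, 7.8, 12.0 and 14.1 in dehydrated pools, against 5.7, 0.7, 5.9, 8.1 and 10.6 in control pools. All 5 dehydrated values lay above the control median, and the groups overlapped. Without the filter the log2 difference was 0.59 ± 0.29 (adjusted p = 0.511), with a 95% interval of the fold from 0.969 to 2.33. Much of it came from control replicate 2, the pool at 0.7, since without that array the difference was 0.32 (adjusted p = 0.719). With all arrays it was 0.87 at a pseudocount of 1 and 0.27 at 4 times the pseudocount. The probe set cannot separate the full-length transcript from the splice form, because nothing in the table gives the probes' positions.

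Fosl1 had the largest difference among the tested probe sets. The gene encodes Fra-1, a Fos protein without the strong activation domain of Fos, and it is itself known as a target of AP-1. Probe set 1368489_at had signals of 30.0, 26.0, 26.4, 35.9 and 31.2 in dehydrated pools, against 15.7, 29.8, 13.4, 20.3 and 18.9 in control pools. Only control replicate 2 reached into the dehydrated range. Means were 29.9 ± 4.04 in dehydrated and 19.6 ± 6.30 in control pools. In limma the log2 difference was 0.56 ± 0.19 and did not pass (adjusted p = 0.226). An exact two-sided permutation of the arrays gave p = 0.0238 (0.330 adjusted over all tested probe sets), where the smallest possible value is 0.00794. The difference was 0.55 without dehydrated replicate 1, 0.56 without control replicate 5 and 0.70 without control replicate 2 (adjusted p = 0.311, 0.218 and 0.140). It was 0.50 without dehydrated replicate 4 and 0.46, the lowest, without control replicate 3 (adjusted p = 0.397 and 0.381). The mean over all 10 arrays, 24.8, lay just above the filter, and the control mean lay under it, so this probe set was tested because of its dehydrated values. At a pseudocount of 64 its log2 difference was 0.17.

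Fosl2, the gene of the related protein Fra-2, had 2 probe sets under the filter. Probe set 1387530_a_at had 10.2 to 16.8 in dehydrated pools and 7.9 to 16.4 in control pools, with a log2 difference of 0.17 ± 0.22 (adjusted p = 0.830, no filter). Probe set 1383860_at stayed at 1.2 to 2.5 in dehydrated and 1.3 to 2.5 in control pools, with a log2 difference of -0.02 ± 0.16 in the fit without the filter. The groups overlapped almost fully in both.

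**Figure D2:**
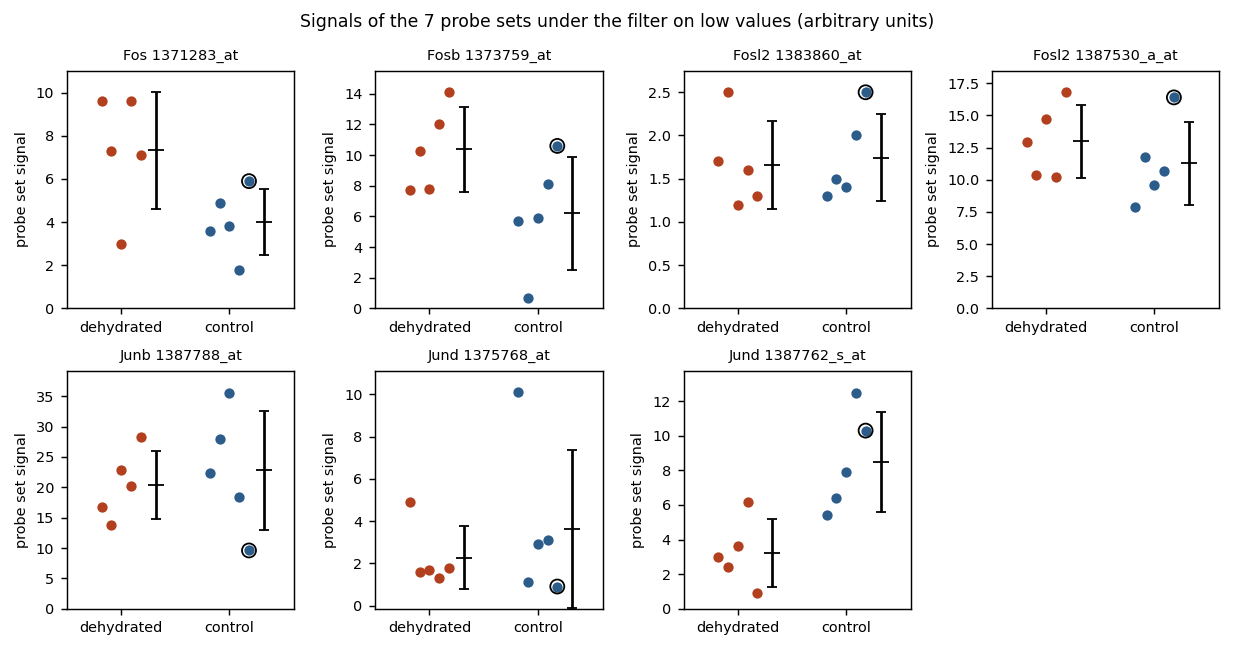
Signals (arbitrary units) of the 7 probe sets under the filter on low values, drawn as in the plot of the tested probe sets with a separate axis for each. Values run from 0.7 to 35.6, and in every panel the dehydrated (left) and control (right) pools overlap.

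Jun, the founding member of its family and a partner of every Fos protein, had 3 tested probe sets that gave different sizes. For 1374404_at the signals were 56.6, 48.3, 47.7, 55.7 and 56.2 in dehydrated pools, against 40, 37.2, 43.6, 44.6 and 43.8 in control pools. All 5 dehydrated pools lay above all 5 controls. Means were 52.9 ± 4.49 in dehydrated and 41.8 ± 3.14 in control pools. In limma the log2 difference was 0.31 ± 0.11 (adjusted p = 0.261). The exact permutation p was 0.00794, the smallest the design allows, and 0.236 adjusted over all tested probe sets. Every probe set without overlap between the groups gets this unadjusted p, so it adds nothing to the lack of overlap. Without dehydrated replicate 1 the difference was 0.29 and without control replicate 5 it was 0.33 (adjusted p = 0.380 and 0.220). The lowest with an array left out was 0.27, without control replicate 2 (adjusted p = 0.432).

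The brightest Jun probe set, 1369788_s_at, had 182.2, 179.7, 175.7, 162.7 and 146.0 in dehydrated pools, against 148.3, 128.1, 149.2, 154.8 and 171.4 in control pools. Here 3 dehydrated pools exceeded the highest control, which was control replicate 5. The log2 difference was 0.17 ± 0.09 (adjusted p = 0.452), and 0.22 without control replicate 5 (adjusted p = 0.268). Without control replicate 2, the lowest value, it was 0.11 (adjusted p = 0.677). Probe set 1389528_s_at, which the annotation ties to the same expressed sequence tag as 1374404_at, had 150.1, 171.5, 154.3, 125.9 and 140.5 in dehydrated and 158.6, 142.1, 117.3, 140.6 and 176.4 in control pools. The groups overlapped over most of their range, with a log2 difference of 0.02 ± 0.11 (adjusted p = 0.958). Control replicate 5 was the highest value, and without it the difference was 0.09 (adjusted p = 0.735).

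The unequal change of the Jun probe sets was tested through their log2 ratio on each array. For 1389528_s_at over 1374404_at the ratio averaged 1.42 ± 0.26 in dehydrated and 1.72 ± 0.24 in control pools (SD, n = 5 each). The difference of -0.29 did not pass before or after adjustment (exact permutation p = 0.0952, 0.317 adjusted over 8 pairs). For 1369788_s_at the exact permutation p was 0.230 against 1374404_at and 0.198 against 1389528_s_at. These were among 8 pairs of probe sets of one gene in both families. With 5 pools a group, a single pair cannot go below 0.0635 once adjusted over the 8 pairs, so this test could not have passed for 1 pair alone, and several of the pairs hold a probe set near the bottom of the range.

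Junb, an immediate-early gene whose product can hold back Jun activity, was dim and scattered. Probe set 1387788_at had 16.7, 13.8, 22.8, 20.2 and 28.2 in dehydrated pools, against 22.4, 27.9, 35.6, 18.4 and 9.6 in control pools. The controls spread more widely than the dehydrated pools and enclosed them. The log2 difference without the filter was -0.08 ± 0.28 (adjusted p = 0.946), with a 95% interval of the fold from 0.627 to 1.43. Control replicate 5 was the lowest value, and without it the difference was -0.31 (adjusted p = 0.651).

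Jund, the steadily transcribed Jun gene, had 1 tested and 2 dim probe sets. Probe set 1393138_at had 2462.4, 2265.9, 2124.4, 2337.8 and 2485.6 in dehydrated pools, against 2334.3, 2421.1, 2237.0, 2385.3 and 1521.7 in control pools. Apart from control replicate 5, all 9 arrays lay between 2124.4 and 2485.6. The log2 difference was 0.12 ± 0.10 (adjusted p = 0.664) with all arrays and -0.01 ± 0.05 (adjusted p = 0.966) without control replicate 5. The annotation table gives no accession for this probe set.

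The other Jund probe sets were near the bottom of the range. For 1387762_s_at the signals were 3.0, 2.4, 3.6, 6.2 and 0.9 in dehydrated pools, against 5.4, 6.4, 7.9, 12.5 and 10.3 in control pools. All the dehydrated values but that of replicate 4 lay under the lowest control. In limma without the filter the log2 difference was -0.83 ± 0.25 (adjusted p = 0.243), and it was -1.25 at a pseudocount of 1 and -0.37 at 4 times the pseudocount. The log2 ratio of 1393138_at over this probe set differed by 0.95 between dehydrated and control pools (exact permutation p = 0.0238, 0.190 adjusted over the 8 pairs, with the same limit). For 1375768_at the dehydrated pools had 1.3 to 4.9 and the control pools 0.9 to 10.1, with a difference of -0.20 ± 0.29 (adjusted p = 0.845, no filter). The highest dehydrated value was that of replicate 1, and without it the difference was -0.34 (adjusted p = 0.750). The highest control value, 10.1, was that of control replicate 1, and without that array the difference turned to 0.06 (adjusted p = 0.959).

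**Figure D3:**
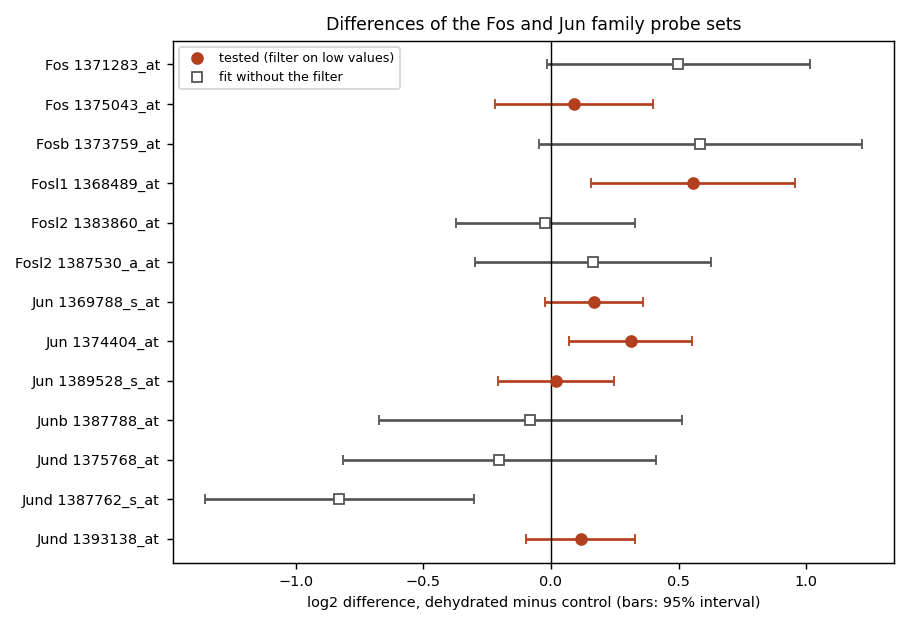
Log2 difference, dehydrated minus control (horizontal axis), of the 13 probe sets, with bars for the 95% interval of the limma fit. Filled circles were tested with the filter and open squares come from the fit without it. The interval lies wholly above 0 for Fosl1 1368489_at and Jun 1374404_at and wholly below 0 for Jund 1387762_s_at, before any adjustment for the number of probe sets. The open squares are dim probe sets, for which no detection call was used.

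Promoter sequences, 250 bases before to 50 after the annotated start of each gene in RefSeq on rat build GRCr8, were held for 5 members: Fosb, Fosl1, Fosl2, Junb and Jund. They are shown for the 3 that hold TGACG, the core of the element bound by CREB and ATF factors, because the upstream factors are described next. Each is printed 5′ to 3′ along the gene's strand, with TGACG and its reverse complement CGTCA in capitals.
Fosl1 (chr1:212183635-212183934, plus strand): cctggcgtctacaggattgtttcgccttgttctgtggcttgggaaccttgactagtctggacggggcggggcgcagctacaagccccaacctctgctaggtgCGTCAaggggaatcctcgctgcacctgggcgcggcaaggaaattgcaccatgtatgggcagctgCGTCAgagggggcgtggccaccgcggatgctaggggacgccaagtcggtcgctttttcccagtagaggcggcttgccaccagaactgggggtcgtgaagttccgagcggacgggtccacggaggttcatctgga
Junb (chr19:40080876-40081175, plus strand): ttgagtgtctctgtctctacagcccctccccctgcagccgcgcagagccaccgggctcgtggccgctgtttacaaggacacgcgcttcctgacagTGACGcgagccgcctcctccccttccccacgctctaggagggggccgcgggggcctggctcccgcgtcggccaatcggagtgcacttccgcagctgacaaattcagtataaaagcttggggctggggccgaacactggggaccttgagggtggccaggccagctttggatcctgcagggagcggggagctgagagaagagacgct
Jund (chr16:18769722-18770021, minus strand): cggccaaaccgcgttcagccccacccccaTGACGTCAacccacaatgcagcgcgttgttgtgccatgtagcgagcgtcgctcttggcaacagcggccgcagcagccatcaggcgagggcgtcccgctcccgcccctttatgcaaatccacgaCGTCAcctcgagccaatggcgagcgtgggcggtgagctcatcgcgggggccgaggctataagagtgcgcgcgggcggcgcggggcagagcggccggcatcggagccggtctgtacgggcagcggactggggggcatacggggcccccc
TGACG was found on either strand in 21.2% of all 33469 promoters of that length. The full palindrome TGACGTCA, in which the core and its reverse complement overlap, was found in 1.83%, and among the members in Jund alone, where it begins 221 bases before the start. A second core of Jund begins 98 bases before the start, those of Fosl1 148 and 84 bases before it and that of Junb 155 bases before it. The AP-1 element TGACTCA, searched on both strands, was found in 0 of the 5 windows and in 4.63% of all promoters. The CArG box, the site of serum response factor, was likewise found in 0 of the 5 and in 1.64% of all. These are matches of letters in a short window and show no binding.

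Among the factors that act on Fos and Jun promoters, Ep300 fell and no other gene passed. Of 17 listed genes 16 were tested, of which 0 rose, 1 fell and 15 did not pass, with 5 at an unadjusted p under 0.05 (12.7% of all tested probe sets) and a median log2 difference of -0.01 beside -0.0048 over all probe sets tested. The one that passed was Ep300, a histone acetyltransferase and coactivator, with 269 ± 29.9 in dehydrated and 345 ± 18.8 in control pools (log2 difference -0.36 ± 0.08, adjusted p = 0.0474). That call held in 1 of the 10 fits with an array left out, whose adjusted p ran from 0.0145 to 0.132. A second Ep300 probe set, dim with a mean signal of 21.1, differed by 0.25 in the other direction without the filter. Creb1, the factor that binds the TGACG core, had 92.0 to 99.1 in dehydrated and 110 to 117 in control pools, which did not overlap (log2 -0.23 ± 0.08, adjusted p = 0.224). Its other probe sets, all under the filter, differed by 0.06, 0.14 and -0.17. Elk3, a ternary complex factor, had 70.3 to 103 in dehydrated and 60.2 to 67.2 in control pools (log2 0.30 ± 0.11, adjusted p = 0.256), and its other probe sets differed by 0.16, 0.29 and -0.16.

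Kinases and phosphatases upstream of AP-1 gave 0 calls among 12 tested of 22 listed, 6 positive and 6 negative (median log2 0.01), with 1 at an unadjusted p under 0.05. Over all tested probe sets these shares were 0.580% and 12.7%. The smallest p were those of Dusp6, the phosphatase of ERK kinases (log2 0.26 ± 0.11, adjusted p = 0.340), Mapk8, which encodes the Jun kinase JNK1 (-0.15 ± 0.08, adjusted p = 0.451), and the p38 kinase gene Mapk14 (-0.10 ± 0.08, adjusted p = 0.627). Without the filter, other Dusp6 probe sets differed by 0.32 and, for a dim one, by 0.85. Other Mapk8 probe sets differed by -0.08, 0.05 and, for a dim one, -0.03. Genes for turnover and cofactors of AP-1 proteins also gave 0 calls, among 9 tested of 11 listed (median log2 -0.01). Of them 2 had an unadjusted p under 0.05, beside the same 12.7% of all tested probe sets. There the ubiquitin ligase scaffold Cul3 differed by 0.19 ± 0.07, the calcineurin-regulated factor Nfatc2 by -0.22 ± 0.10 and the deubiquitinase Usp28 by -0.21 ± 0.10 (adjusted p from 0.233 to 0.403). A second bright Cul3 probe set differed by -0.15, in the other direction, and a dim one by 0.67. The other Nfatc2 probe set differed by -0.11.

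Among the other leucine zipper factors that can pair with or compete with AP-1, Atf4 rose. It encodes the effector of the integrated stress response. Its signal was 795 ± 23.4 in dehydrated and 627 ± 52.1 in control pools, log2 0.35 ± 0.06 higher (adjusted p = 0.0146). The call held in 7 of the 10 fits with an array left out. The highest adjusted p of those fits was 0.0538, without dehydrated replicate 4. Of 8 tested factors out of 16 listed, 1 rose, 0 fell and 7 did not pass, with 3 at an unadjusted p under 0.05. Over all tested probe sets 0.580% passed and 12.7% had an unadjusted p under 0.05. The median log2 difference of the 8 was -0.11, and 6 were negative. Cebpb, a factor of inflammatory and stress responses, differed by 0.45 ± 0.17 (adjusted p = 0.288) and the small Maf gene Mafg by -0.21 ± 0.09 (adjusted p = 0.355). A dim Mafg probe set differed by -0.27 without the filter.

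**Figure D4:**
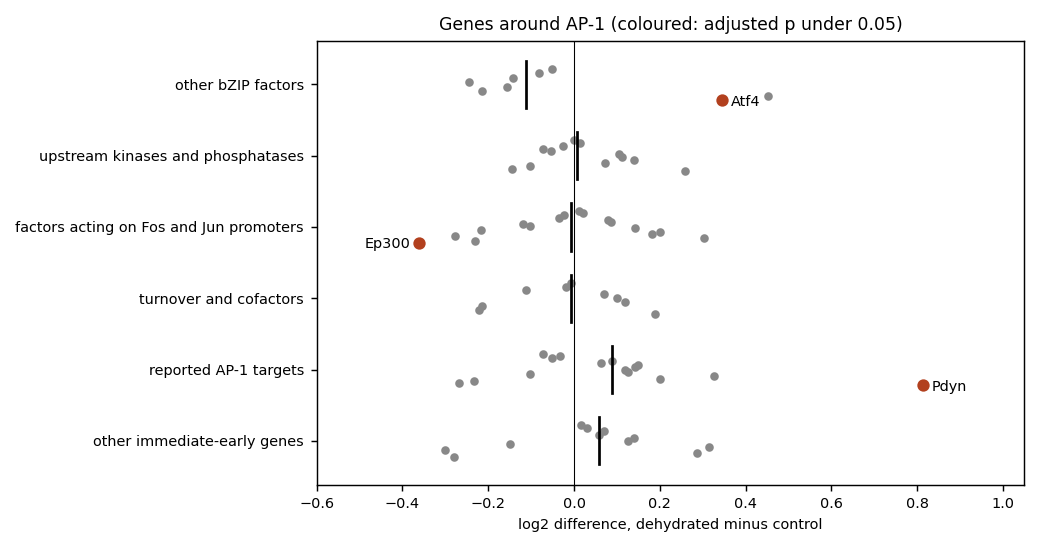
Log2 differences, dehydrated minus control (horizontal axis), of the tested genes in 6 lists around AP-1, 1 dot per gene, with a black line at each list's median. Coloured and named dots passed the test, which were Atf4 at 0.35, Ep300 at -0.36 and Pdyn at 0.81.

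Among genes reported as AP-1 targets, 1 of 15 tested (25 listed) passed, beside 0.580% of all tested probe sets. This was prodynorphin (Pdyn), an opioid peptide precursor of vasopressin neurons, with 680 to 820 in dehydrated and 320 to 497 in control pools (log2 0.81 ± 0.10, adjusted p = 5.7e-04). A second Pdyn probe set, dim with a mean signal of 16.6, differed by -0.03 without the filter. The median of the 15 was 0.09, and 3 had an unadjusted p under 0.05, beside 12.7% of all tested probe sets. Ezr, the gene of the membrane linker ezrin, differed by -0.27 ± 0.08 and the cell cycle gene Ccnd1 by -0.23 ± 0.09 (adjusted p = 0.192 and 0.316). Other Ccnd1 probe sets differed by -0.37 (adjusted p = 0.127) and -0.05 in the fit without the filter. Of 11 tested immediate-early genes of other families 0 passed and 2 had an unadjusted p under 0.05 (0.580% and 12.7% of all tested probe sets). Their median log2 difference was 0.06. Egr1 had 166 to 189 in dehydrated and 184 to 255 in control pools (log2 -0.28 ± 0.09, adjusted p = 0.194), Arc differed by 0.29 ± 0.13 and Nr4a3 by -0.30 ± 0.16 (adjusted p = 0.377 and 0.458). Other Nr4a3 probe sets differed by -0.42 and, for a dim one, by 0.84. Without control replicate 5, or without dehydrated replicate 1, the counts of calls in these lists were the same except for Ep300's list, where 0 fell. Without dehydrated replicate 2 they were the same in all 6.

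Values of cell type markers are given here beside these results, and 4 of the tested ones passed, beside 0.580% of all tested probe sets. Of all tested probe sets 48.8% were positive. All 7 tested oligodendrocyte genes were negative, and their summed signal was 6619 to 6834 in dehydrated and 7064 to 8525 in control pools. All 4 magnocellular genes were positive, with sums of 9543 to 12895 in dehydrated and 7659 to 9925 in control pools. All 4 tested parvocellular and lineage genes of the paraventricular nucleus were positive (median log2 0.27), with 0 that passed. The 6 of that list on the array, tested or not, summed to 2276 to 3415 in dehydrated and 1734 to 2549 in control pools. Of 4 tested genes of the lateral and posterior hypothalamus 3 were negative, with sums of 3276 to 5932 in dehydrated and 4059 to 6914 in control pools. Hcrt, Hdc and Nkx2-1 differed by -1.28, -0.67 and -0.50 (adjusted p from 0.135 to 0.233). Pmch, the brightest of the 4, differed by 0.02. The 4 tested microglial genes were all negative. The 6 microglial genes on the array, tested or not, summed to 569 to 701 in dehydrated and 662 to 742 in control pools. The red blood cell genes Hbb and Alas2 summed to 304 to 569 in dehydrated and 562 to 769 in control pools. Endothelial genes (5 of 6 positive) summed to 986 to 1086 in dehydrated and 794 to 1083 in control pools, and astrocyte genes (2 of 6 positive) to 8462 to 9047 in dehydrated and 8471 to 9631 in control pools. The markers that passed were Vgf, a secretory granule protein of these neurons (log2 0.62), and Pdyn, which rose, and the myelin gene Ermn (-0.63) and Hbb (-0.67), which fell, with calls that held in 10, 10, 7 and 4 of the 10 fits with an array left out. Other Ermn probe sets differed by -0.30 and, for a dim one, -0.22 in the fit without the filter. None of the listed markers was at 0 on any array. Their part in the values of the Fos and Jun families was not tested.

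Genes with the most similar pattern over the 10 arrays were looked up among 13588 tested probe sets with 1 symbol, by Pearson's r of the log2 values. For Fos (1375043_at) they were Mterf3 (r = 0.968), Plppr4 (0.952) and Tm6sf1 (0.923), and for Fosl1 Sh3kbp1 (0.924), Cd81 (0.921) and Upp1 (0.915). For the brightest Jun probe set they were Gja5 (0.983), Mustn1 (0.917) and Morc4 (0.903). For Jund they were Grin2a (0.965), Vps35 (0.959) and Ccl3 (0.955), where the likeness rested on control replicate 5: without it r was 0.661, 0.768 and 0.495. For the other 3 members without it r was 0.850 or more. The highest of so many values is high for any probe set, so these are a description only.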

How the data were processed

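The data were 10 Affymetrix Rat Genome 230 2.0 arrays, 5 of dehydrated and 5 of control pools. The deposited values are linear probe set signals, and the submitters' processing notes name GCOS 1.2. Signal algorithm, background step and detection calls: not given in the sources used here. Trimmed mean signals were 100.03 on every array, so the deposited table had been scaled to a common level, with array medians of 36.4 to 39.1. High signals are compressed and low ones hold background, and the number of arrays limits the precision.

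Of 31099 probe sets, 57 control probe sets were left out. In the platform annotation 20826 of the others had 1 symbol, 436 had several and 9780 were not listed. Symbols of list genes were updated through Entrez identifiers (20758 matched in RefSeq, used for names only), which added 0 probe sets to the members. Probe sets from the 40th percentile of mean signal upwards were tested as log2(signal + 3.72) with lmFit and eBayes (variance trend) (limma 3.58.1, R 4.3.3). Tests were two-sided, p-values were adjusted by Benjamini-Hochberg, and the threshold was 0.05. Members under the filter come from the same fit without it. Exact permutations ran over all 252 assignments of the arrays. Tested on simulated arrays built from the 18629 tested probe sets, the fit recovered 30.8%, 81.2% and 98.4% of true log2 differences of 0.4, 0.8 and 1.6.

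Replicates were numbered in accession order, and a number pairs nothing. The labels used here give no hybridisation batch, so batch and dehydration cannot be told apart. The members and gene lists were chosen with earlier results of these data known. Named genes were all member probe sets, the genes of each list around AP-1 that passed (filled up to 3 by the smallest p), the 3 genes most alike to each tested member, and markers that passed. The genes of the tissue check, the pituitary genes and the single values of the lateral and posterior hypothalamus genes were picked after their values were seen. In a list, the tested probe set with the highest mean signal stood for a gene.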

Additional observations from a re-analysis of the deposited data

Results flagged for a closer look

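A pool far from the others of its group was looked for in 52 probe sets, through the gap of the highest or lowest value to its neighbour as a share of the group's range (over 0.710 for 5 pools). Of 104 groups 8 were set apart. The probe sets searched include genes picked for their values in these arrays, such as Gh1, Prl and Morc4, so the count cannot be set against a chance rate. For Jund 1393138_at, control replicate 5 had 1521.7 and the other controls 2237.0 to 2421.1. For Jund 1375768_at, dehydrated replicate 1 had 4.9 (others 1.3 to 1.8) and control replicate 1 had 10.1 (others 0.9 to 3.1). Atf4 was 835.7 in dehydrated replicate 4 (others 774.8 to 791.5) and Ep300 311.8 in control replicate 1 (others 350.3 to 358.3). Morc4 was 14.9 in control replicate 2 (others 23.3 to 24.8). The pituitary genes Gh1 and Prl were 389.4 and 210.2 in dehydrated replicate 1, against at most 27.3 and 7.6 in the other dehydrated pools.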

How the results depend on the processing

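The count of member probe sets past the threshold was 0 under every alternative run. These were other pseudocounts, median centring, quantile normalization, no filter, a stricter filter, no variance trend, a robust fit, array weights, an exact permutation test adjusted over all probe sets and each array left out. Over all probe sets, 108 changed, and 64 without the filter, 45 without the variance trend, 201 with array weights and 46 to 148 with an array left out. The exact permutation test called 0, since its smallest p cannot pass after adjustment here, with 2234 at an unadjusted p under 0.05 (limma 2368). Of 208 values of the 13 member probe sets under alternatives, 197 kept direction and side of the threshold and 11 turned direction, each with an array left out. With an array left out, log2 differences of Fos 1375043_at ran from -0.0381 to 0.216, Jun 1389528_s_at from -0.0567 to 0.0867 and Jund 1393138_at from -0.00739 to 0.160. Fos and Jund turned direction without control replicate 5, and Jun without dehydrated replicate 2 (-0.0333) or control replicate 3 (-0.0567). Without the filter, Fosl2 1383860_at turned without dehydrated replicate 3 (0.00942) or 5 (0.00216) or control replicate 5 (0.0266), Junb without dehydrated replicate 2 (0.0264) or control replicate 2 (0.00591) or 3 (0.0845), and Jund 1375768_at without control replicate 1 (0.0566). Leaving out arrays and other pseudocounts in the fit without the filter, list counts without single arrays and the ratio of probe sets were chosen after seeing the data. The cause of these changes was not tested. Signal over background limits the 7 probe sets under the filter, and no detection calls were used. No paired analysis was possible because the labels carry no replicate numbers.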

Other observations

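Relations between the members across pools were computed as a single family. Over the 10 arrays, with the probe set of highest mean signal for each gene, 0 of the 21 pairs passed a permutation test adjusted over the pairs. The smallest unadjusted p was that of Jun and Junb, with Pearson's r = -0.67 (permutation p = 0.033, adjusted 0.444) and Spearman's rho = -0.70 (permutation p = 0.031, adjusted 0.633). Pearson's r was -0.71 without control replicate 5 and -0.68 without the 2 pools farthest from the Jun median. On deviations from the group means it was r = -0.75 (permutation p = 0.012, adjusted 0.261). This pair did not pass, it was singled out for its p, and the Junb probe set is under the filter. Fos and Jund had r = 0.63 with all arrays (permutation p = 0.084) and -0.14 without control replicate 5, so that relation rested on this pool. Fos and Junb, which are both immediate-early genes, had r = 0.38 (permutation p = 0.280) and -0.17 without control replicate 5.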
